A study of Mus musculus with 2 samples.

Results

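MHC class I molecules display peptides from inside a cell to CD8+ T cells, and 9 mouse genes of this pathway are described across the cells of B16 melanoma tumors. They were chosen by name, as 9 of the 31053 mouse genes counted, and all 9 had UMIs in each of the 6 populations compared. *H2-K1* and *H2-D1* encode the classical heavy chains, and *B2m* encodes β2-microglobulin, the light chain that both bind. Proteasomes cut cytosolic proteins into peptides, the transporter made of *Tap1* and *Tap2* carries the peptides into the endoplasmic reticulum, and tapasin (*Tapbp*) holds empty heavy chains beside the transporter until a peptide is loaded. *Psmb8* and *Psmb9* are catalytic subunits of the immunoproteasome, the form of the proteasome that interferon-γ induces, and NLRC5 is a transactivator that binds the promoters of class I genes. B16, a melanoma line from C57BL/6 mice, is known for low surface class I that interferon-γ raises.

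The study transplanted B16 cells or B16–IL-33 cells, a line engineered to secrete IL-33, into mice and took the tumors on day 9. Cells of the tumors were labelled with hashtag antibodies, TCR-β+ T cells were then sorted and pooled, and 1 gene expression library and 1 hashtag library of the pool were used here. No treatment was given, and the pool holds both tumor types. The gene expression library held 43420305 mouse UMIs in 14035 barcodes.

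Barcodes with at least 200 detected genes and under 5% mitochondrial UMIs were kept, 9844 in all, with a median of 2639 UMIs. CD8+ T cells (1538 barcodes) had more UMIs of *Cd8a* and *Cd8b1* than of *Cd4* and *Foxp3*. T_reg_ cells (2833) had *Foxp3* and T_conv_ cells (1813) had *Cd4* without *Foxp3*, and NKT cells (89) had *Zbtb16* without *Foxp3*, all without *Cd8a* or *Cd8b1*. Myeloid barcodes (183) had *Csf1r* and no *Cd3e*, and melanoma barcodes (78) had at least 20 UMIs of *Pmel*, *Mlana*, *Dct* and *Tyrp1* and no *Cd3e*. The remaining 3374 kept barcodes met none of these rules. Median depth was 4189 UMIs in CD8+ T cells, 2974 in T_reg_ cells, 2543 in T_conv_ cells, 3095 in NKT cells, 6440 in myeloid barcodes and 43351 in melanoma barcodes. The rules overlap, with 26 barcodes in both NKT and T_conv_ cells, 28 myeloid barcodes and 9 melanoma barcodes that also met a T cell rule. Levels are UMIs summed over the barcodes of a population per 1000000 mouse UMIs (CPM). Since all cells come from 1 library, there are no replicates, and each bracket after a level or ratio gives its exact 95% interval, which covers counting error only.

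Markers of each cell type were summed in each population, and the NKT, T cell, myeloid and melanoma lists are given. The 4 NKT markers, among them *Zbtb16* of the rule, summed to 900 CPM in NKT, 614 in CD8+, 555 in T_reg_ and 485 in T_conv_ cells. *Il2rb* was the most abundant of them in each, at 342, 357, 443 and 295 CPM. It was thus not higher in NKT cells than in CD8+ or T_reg_ cells. The 7 T cell markers (*Cd3d*, *Cd3e*, *Cd3g*, *Trac*, *Trbc2*, *Lck* and *Thy1*) summed to 4648 CPM in CD8+, 4461 in T_reg_, 4508 in T_conv_ and 3606 in NKT cells, and *Cd3d* was the most abundant in each. They summed to 116 CPM in myeloid barcodes, with *Cd3d* again highest, and to 21.6 in melanoma barcodes, with *Lck* highest. Only *Cd3e*, which the rules require to be absent, was at 0 in those populations. The 10 myeloid markers summed to 18423 CPM in myeloid barcodes, with *Lyz2* highest and *Csf1r*, the gene of the rule, at 298, and to 359 in melanoma barcodes, nearly all of it *Cst3*. There, *Csf1r*, *Lyz2*, *C1qb*, *Itgam*, *Adgre1* and *Tyrobp* were at 0. The 8 melanoma markers summed to 13339 CPM in melanoma barcodes and 634 in myeloid barcodes, where *Gpnmb*, a gene that macrophages also express, made up 567. Since melanoma barcodes were selected by *Pmel*, *Mlana*, *Dct* and *Tyrp1*, the sum there is in part set by the rule. The 4 markers outside the rule were at 1844 CPM for *Gpnmb*, 229 for *Tyr*, 203 for *Mitf* and 144 for *Sox10* in melanoma barcodes, and in myeloid barcodes *Tyr*, *Mitf* and *Sox10* were at 1.20, 50.9 and 1.20. In T cells all 8 summed to between 162 CPM in T_reg_ and 814 in NKT cells, with *Dct* highest in all 4 T cell populations. The myeloid markers were there too, at 1218 CPM in T_reg_, 1088 in CD8+, 681 in T_conv_ and 558 in NKT cells, so they move with the populations compared.

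Among the heavy chains, *H2-K1* (ENSMUSG00000061232, chr17:33996017-34000347, minus strand of mm10) was highest in T_reg_ cells. Its level was 3995 (3958 to 4032) CPM in T_reg_, 3050.2 (3005 to 3096) in T_conv_, 2211 (2182 to 2241) in CD8+ and 2033 (1894 to 2179) in NKT cells, 1082 (1032 to 1133) in myeloid barcodes and 24.4 (19.3 to 30.5) in melanoma barcodes. That is also the order from high to low, and the ratio of every neighbouring pair excluded 1, the closest being CD8+ over NKT cells at 1.09 (1.01 to 1.17). *H2-D1* (ENSMUSG00000073411, chr17:35262730-35267499, plus strand), the other classical heavy chain, fell over a narrower range. It was at 3263 (3229 to 3296) CPM in T_reg_, 2428 (2388 to 2469) in T_conv_, 1952 (1924 to 1979.9) in CD8+ and 1777 (1648 to 1914) in NKT cells, 1789.8 (1726 to 1855) in myeloid and 103 (92.1 to 115) in melanoma barcodes. Here myeloid barcodes and NKT cells did not differ (ratio 1.01, 0.927 to 1.10), whereas for *H2-K1* NKT cells were 1.88-fold above myeloid barcodes.

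*B2m* (ENSMUSG00000060802, chr2:122147686-122153083, plus strand), which lies outside the MHC, varied least between T cells and the other populations. Its level was 3914 (3878 to 3951) CPM in T_reg_, 3223 (3176 to 3269) in T_conv_, 2905 (2738 to 3078) in NKT and 2727 (2694 to 2761) in CD8+ T cells. Myeloid barcodes, at 2682 (2604 to 2762) CPM, did not differ from CD8+ T cells (ratio of CD8+ over myeloid 1.02, 0.985 to 1.05). Melanoma barcodes were again lowest, at 509 (484 to 534) CPM, 5.27-fold below myeloid barcodes.

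The peptide loading genes kept T_reg_ cells on top. *Tap1* (ENSMUSG00000037321, chr17:34187553-34197225, plus strand) was at 328 (318 to 339) CPM in T_reg_, 212 (199.95 to 224) in T_conv_, 165 (156 to 173) in CD8+ and 148 (112 to 191) in NKT cells, 143 (125 to 162) in myeloid and 10.3 (7.11 to 14.5) in melanoma barcodes. CD8+ T cells, NKT cells and myeloid barcodes were not separated as neighbours in this order. *Tap2* (ENSMUSG00000024339, chr17:34203527-34216321, plus strand), the other half-transporter, was at 255 (246 to 265) CPM in T_reg_, 189 (178 to 201) in T_conv_, 139 (131 to 146) in CD8+ and 138 (103 to 179.7) in NKT cells, but only 60.5 (49.3 to 73.5) in myeloid and 8.14 (5.32 to 11.9) in melanoma barcodes. CD8+ and NKT cells did not differ (ratio 1.01, 0.766 to 1.35), and NKT cells were 2.28-fold above myeloid barcodes, a step that *Tap1* did not show. *Tapbp* (ENSMUSG00000024308, chr17:33915899-33929292, plus strand) was at 256 (246 to 265) CPM in T_reg_ cells, 188 (177 to 199) in T_conv_, 181 (141 to 228) in NKT and 155 (147 to 163) in CD8+ T cells, 157 (139 to 177) in myeloid barcodes and 21.3 (16.5 to 27.0) in melanoma barcodes. Between T_reg_ cells at the top and melanoma barcodes at the bottom, no neighbours in the order of *Tapbp* levels differed beyond counting error.

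Over all depths the immunoproteasome subunits followed another order, in which CD8+ T cells came after T_reg_ cells and before T_conv_ cells. *Psmb8* (ENSMUSG00000024338, chr17:34197721-34201454, plus strand) was at 776 (759.6 to 792) CPM in T_reg_, 747 (729.7 to 764) in CD8+, 658 (637 to 679) in T_conv_ and 584 (511 to 665) in NKT cells, 460.0 (428 to 494) in myeloid and 3.76 (1.94 to 6.56) in melanoma barcodes. The T_reg_ level was only 1.04-fold (1.01 to 1.07) above the CD8+ level, and the melanoma level rested on 12 UMIs. *Psmb9* (ENSMUSG00000096727, chr17:34181987-34187764, minus strand) was at 412 (399.7 to 424) CPM in T_reg_, 331 (319.7 to 343) in CD8+, 293 (279 to 307) in T_conv_ and 242 (196 to 296) in NKT cells, 193 (173 to 216) in myeloid and 14.4 (10.5 to 19.2) in melanoma barcodes. For both subunits T_conv_ and NKT cells did not differ, and for *Psmb9* neither did NKT cells and myeloid barcodes. The place of CD8+ above T_conv_ cells did not hold at 2500 to 4000 UMIs, where their ratio was 0.998 (0.912 to 1.09) for *Psmb8* and 0.895 (0.776 to 1.03) for *Psmb9*.

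*Nlrc5* (ENSMUSG00000074151, chr8:94434356-94527272, plus strand), the transactivator, had the lowest T cell level of the 9 genes and, over all depths, differed least among T cells. It was at 63.8 (41.3 to 94.1) CPM in NKT, 60.8 (56.3 to 65.6) in T_reg_, 60.0 (53.8 to 66.7) in T_conv_ and 53.9 (49.3 to 58.7) in CD8+ T cells, and none of these neighbours differed. Myeloid barcodes were at 17.4 (11.6 to 24.9) CPM from 29 UMIs, 3.101-fold below CD8+ T cells, and melanoma barcodes at 5.32 (3.0996 to 8.52) from 17 UMIs.

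**Figure D1:**
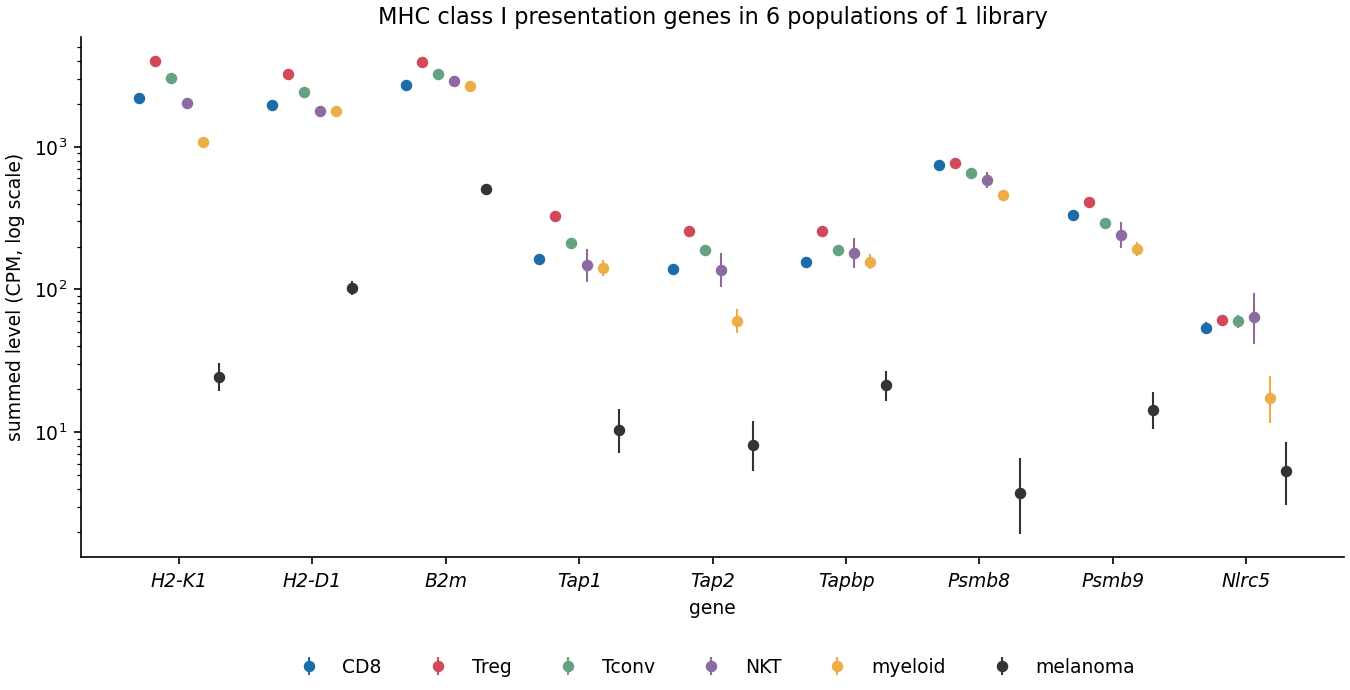
Summed level in CPM on a log axis (vertical) of each of the 9 genes (horizontal) in 6 populations of 1 library, as points with exact 95% Poisson intervals. Melanoma barcodes are lowest for all 9 genes, from 3.76 CPM for *Psmb8* to 509 for *B2m*, and T_reg_ cells are highest for all but *Nlrc5*.

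T_reg_ cells were compared with T_conv_ cells, the other CD4+ population. Summed, the 9 genes had 13259.7 CPM in T_reg_ against 10300.3 in T_conv_ cells, a ratio of 1.29 (1.28 to 1.30), and all 9 ratios were above 1, beside 4118 of the 6801 genes tested. Over all depths *Tap1* rose most, to 1.55 (1.45 to 1.66), followed by *Psmb9* at 1.41 (1.33 to 1.49), *Tapbp* at 1.36 (1.27 to 1.46), *Tap2* at 1.35 (1.26 to 1.45) and *H2-D1* at 1.34 (1.32 to 1.37). *H2-K1* was at 1.31 (1.29 to 1.33), *B2m* at 1.21 (1.19 to 1.24) and *Psmb8* at 1.18 (1.14 to 1.23), and *Nlrc5* did not differ at 1.01 (0.890 to 1.16). *Tap1* alone of the 9 passed 1.5-fold over all depths (others did in bins of depth, given below), against 8.9% of the 6801 genes with at least 200 UMIs in both populations together that were at least 1.5-fold higher, and no member passed that fold downwards, against 3.91% of genes. With scaling by the median of gene ratios 0 members passed it upwards, against 7.43% of genes. The median ratio was 1.34 for the 9 genes and 1.05 for all genes tested.

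Lists of related genes were set beside them, where 8.9% of all genes tested passed the fold upwards and 3.91% downwards. Of the 7 other class I heavy chain genes with enough UMIs, 0 passed the fold in T_reg_ over T_conv_ cells, and they ran from *H2-M3*, which presents formylated peptides, at 1.46 (1.26 to 1.70) to *Cd1d1*, which presents lipids to NKT cells, at 0.827 (0.645 to 1.06). Of the 7 loading and trimming genes 1 passed it, *Tapbpl*, a tapasin relative, at 1.73 (1.51 to 1.98), and the peptide-trimming protease *Erap1* was lowest at 0.954 (0.812 to 1.12). The proteasome activator subunit *Psme2* stood at 1.31 (1.26 to 1.36) and *Psmb10*, the remaining inducible catalytic subunit, at 0.969 (0.899 to 1.05), whereas the 8 constitutive proteasome genes had a median of 1.06, from *Psma3* at 1.17 (1.10 to 1.25) to *Psmb1* at 0.955 (0.904 to 1.01). Among 11 regulators the median was 1.10, and 1 passed the fold, *Irf8*, at 3.097 (2.74 to 3.51). The lowest regulator was *Socs1*, an inhibitor of cytokine signaling, at 0.744 (0.683 to 0.811). Of 12 interferon-induced genes 3 were past the fold upwards, with the GTPase *Iigp1* highest at 2.07 (1.77 to 2.42), and 1 downwards, *Ifit3*, at 0.596 (0.496 to 0.717). The interferon receptor chains ran from *Ifnar1* at 1.32 (1.16 to 1.51) to *Ifngr2* at 0.821 (0.629 to 1.08).

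CD8+ T cells, the cells that recognize class I, were compared with T_conv_ cells as well. The 9 genes together were at 8480.0 CPM, 0.823 (0.815 to 0.832) of the T_conv_ level. *H2-K1* was at 0.725 (0.711 to 0.740), *H2-D1* at 0.804 (0.786 to 0.822) and *B2m* at 0.846 (0.831 to 0.863) of the T_conv_ level, and *Tap1*, *Tap2* and *Tapbp* at 0.777 (0.721 to 0.838), 0.732 (0.675 to 0.794) and 0.824 (0.761 to 0.892). These ratios changed with depth, and at 8000 UMIs and over all 6 were above 1. Over all depths both immunoproteasome subunits were higher in CD8+ T cells, *Psmb8* at 1.14 (1.09 to 1.18) and *Psmb9* at 1.13 (1.07 to 1.20), and the interval of *Nlrc5*, at 0.898 (0.782 to 1.03), included 1. The higher level did not hold at each depth, with *Psmb8* and *Psmb9* at 1.17 (0.850 to 1.59) and 0.687 (0.418 to 1.08) in barcodes under 1500 UMIs, 1.08 (0.955 to 1.23) and 1.24 (1.03 to 1.49) at 1500 to 2500, 0.998 (0.912 to 1.09) and 0.895 (0.776 to 1.03) at 2500 to 4000, 0.996 (0.925 to 1.07) and 1.03 (0.926 to 1.16) at 4000 to 8000, and 1.52 (1.38 to 1.68) and 1.56 (1.34 to 1.81) at 8000 and over. Over all depths none of the 9 passed 1.5-fold in either direction, against 6.67% of genes tested higher and 12.8% lower. All 8 constitutive proteasome genes were above 1 as well, with a median of 1.20 between *Psmb1* at 1.04 and *Psmb6* at 1.31.

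Other lists went both ways in the same comparison. Below 1 were 8 of 10 regulators, 11 of 12 interferon-induced genes and 4 of 6 other heavy chains, beside 3783 of the 6329 genes tested, while 4 of 7 loading and trimming genes and 2 of 3 inducible proteasome genes were above 1. Of 10 regulators 5 were past the fold downwards, against 12.8% of genes tested, with *Socs1* lowest at 0.476 (0.431 to 0.526). *Irf8* was past it upwards at 1.97 (1.73 to 2.25), against 6.67% of genes tested. Of 12 interferon-induced genes 4 were past it downwards, with *Iigp1* lowest at 0.253 (0.195 to 0.327) and *Bst2* highest at 1.00 (0.934 to 1.07). The 3 interferon receptor chains with enough UMIs were below 1, from *Ifngr1* at 0.685 (0.652 to 0.719) to *Ifnar2* at 0.849 (0.745 to 0.969). No gene passed the fold among the heavy chains, from *H2-Q4* at 0.696 (0.649 to 0.747) to *H2-Q6* at 1.02 (0.954 to 1.10), or among the loading and trimming genes, from *Erap1* at 0.943 (0.798 to 1.12) to the chaperone *Hsp90b1* at 1.28 (1.22 to 1.35). The same held for the inducible proteasome genes, from *Psme2* at 0.923 (0.884 to 0.965) to *Psme1* at 1.04 (0.991 to 1.09).

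NKT cells, with far fewer UMIs, had less of the heavy chains than T_conv_ cells over all depths. *H2-K1* was at 0.666 (0.620 to 0.715) and *H2-D1* at 0.732 (0.677 to 0.790) of the T_conv_ level, *Tap1* at 0.699 (0.527 to 0.909) and *Tap2* at 0.727 (0.543 to 0.956). *B2m* was closer to 1, at 0.901 (0.848 to 0.957), and the intervals of *Tapbp*, *Psmb8*, *Psmb9* and *Nlrc5* included 1. *H2-K1* was the 1 member past the fold downwards, against 13.6% of the 3699 genes tested, and 0 were past it upwards, against 3.87%. At like depth *H2-K1* was past it in none of the 4 bins from 1500 UMIs, at 0.773 (0.656 to 0.904), 0.871 (0.759 to 0.995), 0.688 (0.605 to 0.779) and 0.869 (0.726 to 1.03), the last on 8 NKT cells. In the same bins *H2-D1* was at 0.771 (0.638 to 0.924), 0.867 (0.742 to 1.01), 0.775 (0.678 to 0.882) and 0.972 (0.816 to 1.15), *Tap1*, with 1 in each interval, at 0.658 (0.297 to 1.27), 0.983 (0.555 to 1.62), 0.790 (0.483 to 1.23) and 0.816 (0.410 to 1.48), and *Tap2* at 0.385 (0.124 to 0.911), 1.04 (0.576 to 1.75), 0.925 (0.584 to 1.40) and 0.821 (0.363 to 1.63). Over all depths the ratios of the 6 other heavy chains were below 1, beside 2092 of the 3699 genes tested, and 2 of 6 were past the fold. They ran from *H2-Q7* at 0.588 (0.49999 to 0.688) to *H2-Q4* at 0.823 (0.652 to 1.03), whose interval included 1. The 3 other inducible proteasome genes were not lower, from *Psme2* at 1.06 (0.922 to 1.20) to *Psmb10* at 1.30 (1.04 to 1.61). Constitutive subunits ran from *Psmb5* at 0.780 (0.573 to 1.04) to *Psmb7* at 1.29 (0.894 to 1.80), and loading genes from *Canx* at 0.860 (0.639 to 1.14) to *Erap1* at 1.25 (0.751 to 1.98). Regulators ran from *Irf9* at 0.339 (0.145 to 0.676), on 8 UMIs, to *Irf8* at 1.45 (0.961 to 2.11). Interferon receptor chains ran from *Ifngr1* at 0.644 (0.537 to 0.767) to *Ifnar2* at 1.52 (1.08 to 2.10), and interferon-induced genes from *Ifi27l2a* at 0.516 (0.473 to 0.561) to *Rtp4* at 1.80 (1.36 to 2.34).

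Levels of the heavy chains depended on how many UMIs a barcode had, so the T cell populations were also compared at like depth, in bins chosen after seeing the data. In T_reg_ cells *H2-K1* was at 7609 CPM in barcodes under 1500 UMIs, 5388 at 1500 to 2500, 4659 at 2500 to 4000, 3905 at 4000 to 8000 and 2455 at 8000 and over. From the 1500 to 2500 bin to the deepest, *H2-K1* fell to 0.456 (0.441 to 0.470) of its level in T_reg_, 0.494 (0.470 to 0.520) in CD8+ and 0.420 (0.394 to 0.447) in T_conv_ cells. *Nlrc5* fell to 0.395 (0.305 to 0.511), 0.333 (0.247 to 0.456) and 0.301 (0.169 to 0.507), the last on 18 UMIs in deep barcodes, with an interval apart from that of *H2-K1* in CD8+ T cells alone. *B2m* fell less, to 0.554, 0.642 and 0.555. The immunoproteasome did not fall with them in T_reg_ and CD8+ T cells. Between the same 2 bins *Psmb8* stood at 1.02 (0.952 to 1.10) in T_reg_ and 1.07 (0.967 to 1.20) in CD8+ T cells, *Psmb9* at 1.06 (0.962 to 1.18) and 0.992 (0.851 to 1.16), and only in T_conv_ cells, with 64 deep barcodes, were they lower, at 0.764 (0.678 to 0.860) and 0.791 (0.658 to 0.948). Under 1500 UMIs *Psmb8* was at 569 CPM in T_reg_ and 547 in CD8+ T cells, against 804 and 774 in the deepest bin, and *Psmb9* was at 362 and 221 against 417 and 344.

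Between these bins 5 of 9 members in CD8+, 6 of 9 in T_reg_ and 6 of 8 in T_conv_ cells were at least 1.5-fold lower in the deep barcodes, against 19.1%, 26.9% and 25.5% of genes tested, and 0 were as much higher, against 904 of 3326, 585 of 3028 and 339 of 1295 genes. *H2-K1*, *H2-D1* and *B2m* were among them in all 3 populations. Ribosomal protein genes took 17.1% of UMIs in the shallowest and 28.7% in the deepest T_reg_ barcodes, and their part in the fall was not tested.

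At like depth T_reg_ cells stayed above T_conv_ cells, with ratios of the summed genes of 1.19, 1.49, 1.41, 1.32 and 1.57 from the shallowest to the deepest bin. At 1500 to 2500 UMIs the highest ratios were those of *Tap1*, *Tapbp*, *H2-D1* and *H2-K1*, at 1.77, 1.66, 1.63 and 1.55. At 8000 UMIs and over *Tap1* was at 1.98, *Tap2* at 1.97, *Psmb9* at 1.89, *Tapbp* at 1.75, *H2-K1* at 1.69, *H2-D1* at 1.61 and *B2m* at 1.36. No share of all genes past the fold is given for these bins, so no count of members past it is read there. At 2500 to 4000 UMIs the ratio was 1.74 (1.53 to 1.98) for *Tap1*, 1.55 (1.35 to 1.78) for *Tap2*, 1.49 (1.44 to 1.55) for *H2-D1* and 1.48 (1.43 to 1.53) for *H2-K1*. *Tapbp* was at 1.38 (1.21 to 1.58), *B2m* at 1.34 (1.30 to 1.39) and *Psmb9* at 1.29 (1.16 to 1.43). The intervals of *Psmb8*, at 1.07 (0.996 to 1.15), and *Nlrc5*, at 0.976 (0.769 to 1.24), included 1 there. In other bins both were higher in T_reg_ cells, *Psmb8* at 1.18 (1.08 to 1.30), 1.08 (1.01 to 1.16) and 1.58 (1.43 to 1.76) at 1500 to 2500, 4000 to 8000 and 8000 UMIs and over, and *Nlrc5* at 1.38 (1.03 to 1.85) and 1.81 (1.10 to 3.16) in the first and last of these. Under 1500 UMIs *H2-K1*, *H2-D1* and *B2m* were higher in T_reg_ cells, at 1.24 (1.17 to 1.31), 1.22 (1.14 to 1.30) and 1.12 (1.05 to 1.19), and the intervals of the other 6 members included 1, with *Tap1* at 1.02 (0.837 to 1.25) and *Nlrc5* at 0.845 (0.495 to 1.45).

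The ratio of CD8+ to T_conv_ cells depended on the bin. For the summed genes it was 0.698 (0.657 to 0.742), 1.02 (0.991 to 1.05), 0.975 (0.952 to 0.997) and 0.935 (0.917 to 0.954) below 8000 UMIs and 1.23 (1.19 to 1.26) above. Under 1500 UMIs, on 109 CD8+ T cells, 4 members had ratios at least 1.5-fold below 1. They were *Tap2* at 0.297 (0.149 to 0.535), *Tap1* at 0.440 (0.271 to 0.681), *Tapbp* at 0.462 (0.260 to 0.770) and *H2-K1* at 0.646 (0.580 to 0.718). Of these, only *H2-K1* had enough UMIs in this bin to count as past the fold. *Tap2* had 12 against 133 UMIs, *Tap1* 23 against 172 and *Tapbp* 17 against 121. There *H2-D1* was at 0.711 (0.630 to 0.8001) and *B2m* at 0.776 (0.694 to 0.867), and the intervals of *Psmb8*, *Psmb9* and *Nlrc5* included 1. At 2500 to 4000 UMIs *H2-K1* was at 0.937 (0.897 to 0.978) and *Tap2* at 0.802 (0.659 to 0.974), and the intervals of the other 7 members included 1. At 4000 to 8000 UMIs *H2-K1* was at 0.905 (0.871 to 0.939), *H2-D1* at 0.892 (0.856 to 0.930) and *Tap2* at 0.729 (0.625 to 0.850), with 1 in the intervals of the other 6. At 1500 to 2500 UMIs the intervals of *H2-K1*, at 0.998 (0.943 to 1.05), *H2-D1*, at 1.05 (0.984 to 1.12), *B2m*, at 1.00 (0.951 to 1.06), and *Tap2*, at 0.784 (0.608 to 1.00), included 1. At 8000 UMIs and over the direction turned for these genes, to 1.18 (1.11 to 1.25), 1.20 (1.13 to 1.28), 1.16 (1.10 to 1.22) and 1.39 (1.11 to 1.76). *Nlrc5* was higher in CD8+ T cells at 1500 to 2500 UMIs, at 1.59 (1.11 to 2.27), and at 8000 and over, at 1.76 (1.09 to 3.04). For NKT over T_conv_ cells the summed ratio was 0.837 (0.768 to 0.910), 0.916 (0.852 to 0.983) and 0.851 (0.8001 to 0.903) in the bins from 1500 to 8000 UMIs, and 0.947 (0.871 to 1.03) on 8 NKT cells above.

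**Figure D2:**
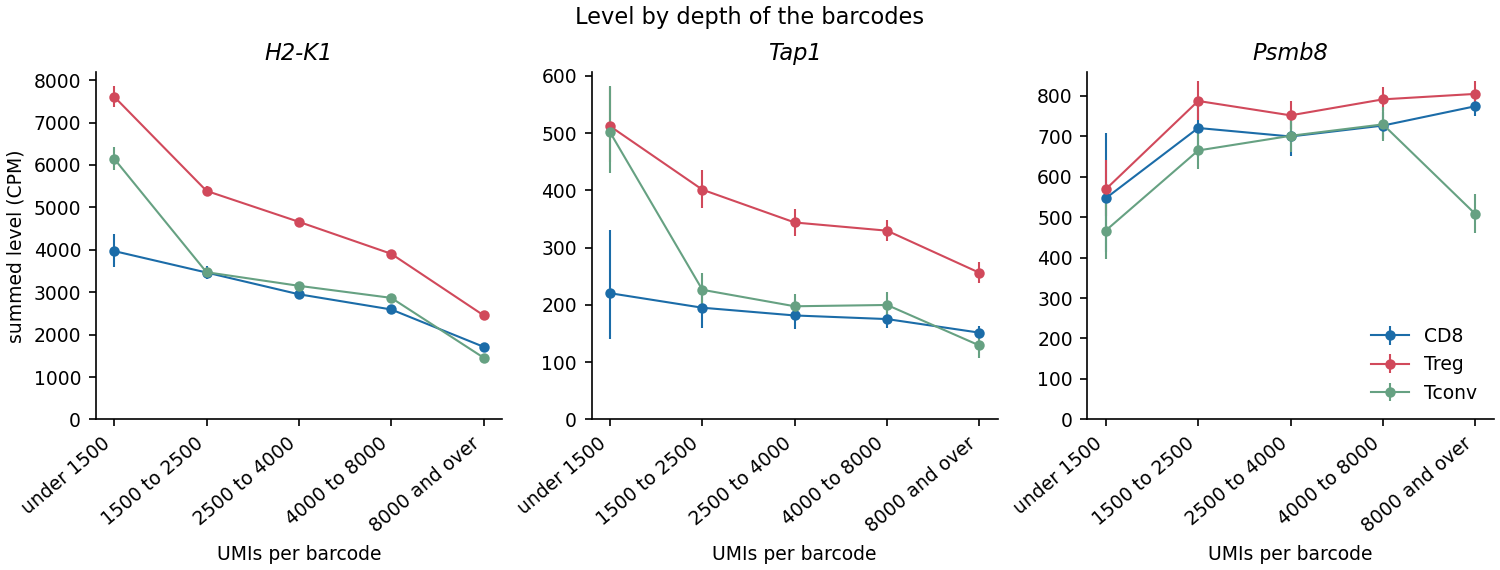
Summed level in CPM (vertical) of *H2-K1*, *Tap1* and *Psmb8* in CD8+ T cells, T_reg_ cells and T_conv_ cells by UMIs per barcode (horizontal), with exact 95% Poisson intervals. *H2-K1* in T_reg_ cells falls from 7609 to 2455 CPM with depth, whereas *Psmb8* there is at 569 CPM in the shallowest bin, 787 at 1500 to 2500 UMIs and 804 in the deepest bin.

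Myeloid barcodes were compared with CD8+, T_reg_ and T_conv_ cells pooled (6184 barcodes, called T cells here). The 9 genes were at 6585 CPM against 10889.7, a ratio of 0.605 (0.593 to 0.616), but over all depths the heavy chains came apart. *H2-K1* was at 0.344 (0.328 to 0.360) of the T cell level, *H2-D1* at 0.686 (0.661 to 0.712) and *B2m* at 0.804 (0.780 to 0.829). *Tap2* was at 0.304 (0.247 to 0.371) and *Tap1* at 0.585 (0.512 to 0.666), *Tapbp* at 0.768 (0.676 to 0.869), *Psmb8* at 0.622 (0.578 to 0.668), *Psmb9* at 0.542 (0.484 to 0.606) and *Nlrc5* at 0.299 (0.199 to 0.431). Of the 9, 6 were past 1.5-fold downwards, against 38.5% of 8216 genes tested, and 0 upwards, against 14.9%, so the count says little about these genes in particular. The scale matters here, since size factors from the median of gene ratios put myeloid barcodes at 0.824 of T cells, a shift of -0.28 on the log2 scale. With that scaling 4 members were past the fold downwards, against 28.2% of genes tested.

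Depth and T cell RNA move with this comparison as well. At 4000 to 8000 UMIs, *H2-K1* was at 0.443 (0.406 to 0.482) of T cells, while *H2-D1* was at 0.889 (0.830 to 0.951), *Psmb8* at 0.799 (0.696 to 0.913), *B2m* at 1.09 (1.03 to 1.15), *Tap1* at 0.868 (0.688 to 1.08), *Tapbp* at 1.04 (0.816 to 1.30), *Psmb9* at 0.639 (0.512 to 0.788), *Tap2* at 0.434 (0.299 to 0.609) and *Nlrc5* at 0.335 (0.144 to 0.666). In the bin with most myeloid barcodes, 71 of at least 8000 UMIs, these ratios were 0.468 (0.439 to 0.498), 0.851 (0.811 to 0.893), 0.521 (0.473 to 0.572), 0.914 (0.877 to 0.952), 0.567 (0.469 to 0.680), 0.793 (0.667 to 0.937), 0.465 (0.400 to 0.537), 0.323 (0.243 to 0.421) and 0.365 (0.202 to 0.611). In both bins the intervals of *H2-K1*, *H2-D1*, *Psmb8*, *Psmb9*, *Tap2* and *Nlrc5* thus lay below 1, whereas *B2m* was above the T cell level in the first and below it in the second. At 2500 to 4000 UMIs, on 25 myeloid barcodes, *H2-K1* was at 0.394 (0.326 to 0.471), *H2-D1* at 0.829 (0.719 to 0.951) and *Tap2* at 0.410 (0.164 to 0.847), while *B2m*, at 0.951 (0.846 to 1.06), *Tap1*, at 1.28 (0.838 to 1.86), *Tapbp*, at 1.27 (0.7995 to 1.91), *Psmb8*, at 1.01 (0.767 to 1.30), *Psmb9*, at 1.06 (0.706 to 1.52), and *Nlrc5*, at 0.692 (0.188 to 1.79), had 1 in their intervals. In shallower barcodes the heavy chains did not come apart. *H2-K1* was at 0.338 (0.216 to 0.503) and *H2-D1* at 0.364 (0.219 to 0.569) under 1500 UMIs, on 11 myeloid barcodes. At 1500 to 2500 UMIs, on 12, they were at 0.470 (0.346 to 0.623) and 0.513 (0.368 to 0.697). In the 102 myeloid barcodes without a UMI of any of the 7 T cell markers, *H2-K1* was at 977 CPM (914 to 1044), *H2-D1* at 1626 CPM (1544 to 1711) and *Tap2* at 53.8 CPM (39.8 to 71.1), beside 1082, 1789.8 and 60.5 CPM in all 183.

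Within a population, the ratio of *H2-K1* to *H2-D1* UMIs does not depend on scaling, and over all depths it was higher in T cells than in myeloid and melanoma barcodes. UMIs mark transcript ends and are not scaled by length, so such ratios are read only between populations. *H2-K1* had 1.26 (1.23 to 1.28) UMIs for each *H2-D1* UMI in T_conv_, 1.22 (1.21 to 1.24) in T_reg_, 1.14 (1.03 to 1.27) in NKT and 1.13 (1.11 to 1.16) in CD8+ T cells. In myeloid barcodes it was 0.604 (0.570 to 0.641) and in melanoma barcodes 0.237 (0.183 to 0.304), both apart from every T cell population. In shallow myeloid barcodes *H2-K1* UMIs were not the fewer, with 24 beside 19 of *H2-D1* under 1500 UMIs and 48 beside 41 at 1500 to 2500. T cells had 6160 beside 4527 and 13204 beside 10324 in the same bins. The *Tap1* to *Tap2* ratio was highest in myeloid barcodes, at 2.36 (1.86 to 3.004) against 1.23 (1.18 to 1.27) in T cells, and 1.27 (0.736 to 2.21) in melanoma barcodes, whose interval overlapped both. *Tap1* to *Psmb9*, neighbours on the chromosome, was 0.497 (0.467 to 0.528) in CD8+ T cells and 0.798 (0.764 to 0.833) in T_reg_ cells, and 0.737 (0.621 to 0.874) in myeloid barcodes.

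Around the members, genes of the other lists went both ways in myeloid barcodes. Of 9 other heavy chain genes 7 were past the fold downwards, with *H2-Q7* lowest at 0.156 (0.135 to 0.1795) and *H2-T24* highest at 1.10 (0.593 to 1.90). Of 7 loading and trimming genes 2 were higher past the fold, led by the chaperone *Calr* at 1.83 (1.71 to 1.96), and 2 lower, led by *Tapbpl* at 0.276 (0.186 to 0.396). The constitutive subunit *Psmb6* was at 2.51 (2.33 to 2.71) and *Psmb1* at 0.692 (0.624 to 0.764), and *Psmb10* and *Psme2* at 0.972 (0.861 to 1.09) and 0.736 (0.685 to 0.791). Of 12 regulators 10 were below 1 and 6 past the fold downwards, against 38.5% of genes tested, with *Rfx5* at 0.396 (0.127 to 0.940), on 5 UMIs, and *Stat2* highest at 1.40 (1.06 to 1.81). The chains of the interferon-γ receptor were opposed, *Ifngr2* at 5.77 (4.62 to 7.16) and *Ifngr1* at 0.212 (0.181 to 0.246). Of 12 interferon-induced genes 8 were above 1 and 7 past the fold upwards, against 14.9% of genes tested, led by *Gbp2* at 3.19 (2.86 to 3.56), and 4 were past it downwards, led by *Igtp* at 0.228 (0.178 to 0.287).

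Melanoma barcodes held little of any member. The 9 genes summed to 699 CPM, 15.6-fold (14.9 to 16.2) below T cells. *Psmb8* was 197-fold (113 to 381) and *H2-K1* 129-fold (103 to 163) lower than in T cells. The 7 T cell markers, with *Cd3e* at 0 by the rule, summed to a level 210-fold (166 to 270) lower. The interval of *Psmb8* overlaps that of these markers, so its fold is not told apart from theirs. *H2-D1* was 25.3-fold (22.7 to 28.3), *Psmb9* 24.8-fold (18.6 to 33.9), *Tap2* 24.4-fold (16.7 to 37.4) and *Tap1* 23.6-fold (16.8 to 34.3) lower. *Nlrc5*, at 10.9-fold (6.80 to 18.8), *Tapbp*, at 9.60-fold (7.56 to 12.4), and *B2m*, at 6.56-fold (6.24 to 6.89), were the least reduced. All 9 were past 1.5-fold downwards, against 34.5% of 8484 genes tested, and 0 upwards, against 29.8%, and the median ratio of the members was 0.0409 against 0.974 for all genes tested.

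Melanoma barcodes were the deepest of the library, and T cells of at least 8000 UMIs have less of most members, so that comparison is given as well. In barcodes of at least 8000 UMIs, 75 of the 78 melanoma barcodes, the summed genes were at 0.0888 (0.0851 to 0.0926) of T cells. *H2-K1* was at 0.0126 (0.00997 to 0.0158), *B2m* at 0.209 (0.198 to 0.220), *Psmb8* at 0.00497 (0.00256 to 0.00868) and *Nlrc5* at 0.153 (0.0883 to 0.249). The sort was for T cells, so these are tumor cells that came through it, and how far they stand for the tumor was not tested.

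T cell RNA was present in part of these barcodes, and its part in the levels was not tested. In the 45 melanoma barcodes without a UMI of the 7 T cell markers, *Psmb8* was at 1.07 CPM (0.129 to 3.85), 2 UMIs in all, against 7.58 (3.64 to 13.9), 10 UMIs, in the other 33. Most *Psmb8* UMIs behind the 197-fold ratio were thus in barcodes with T cell marker UMIs. *H2-K1* was at 18.1 CPM (12.6 to 25.3) against 33.4 (24.2 to 44.8), *H2-D1* at 93.8 CPM (80.5 to 109) against 116 (98.3 to 136), *B2m* at 529.9 CPM (497 to 564) against 478 (442 to 517), *Tapbp* at 22.4 CPM (16.1 to 30.3) against 19.7 (12.9 to 28.9) and *Tap1* at 12.8 CPM (8.20 to 19.0) against 6.82 (3.12 to 13.0). The ratio of *H2-K1* to *B2m* UMIs was 0.0480 (0.0377 to 0.0603) in melanoma barcodes and 0.943 (0.934 to 0.952) in T cells.

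The lists around the members went both ways in melanoma barcodes. Of 8 constitutive proteasome genes 5 were above the T cell level, with a median ratio of 1.31, from *Psmb1* at 0.614 (0.567 to 0.664), the only 1 past the fold, to *Psmb6* at 1.48 (1.38 to 1.59). Of 7 loading and trimming genes 3 were higher past the fold, against 29.8% of genes tested, so the count says little about this list. They were *Canx* at 2.86 (2.70 to 3.04) and, named after their values were seen, *Calr* at 2.35 (2.24 to 2.46) and *Hsp90b1* at 1.80 (1.73 to 1.88). Calnexin, calreticulin and this chaperone fold many glycoproteins besides class I. The 2 genes past the fold downwards were *Tapbpl* at 0.116 (0.0738 to 0.173), the lowest, and *Erap1* at 0.144 (0.0850 to 0.229), also named after its value was seen. The inducible *Psmb10* and the activator subunit *Psme2* were at 0.258 (0.218 to 0.304) and 0.172 (0.154 to 0.191), reduced less than *Psmb8*. All 9 other heavy chain genes tested were past the fold downwards, against 34.5% of all genes tested, from *H2-T22* at 0.123 (0.101 to 0.150) to *H2-Q10*, which had 0 UMIs and was at least 10.2-fold lower, counting 3 UMIs as the floor.

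Upstream genes were low as well in melanoma barcodes. Of 12 regulators 11 were past the fold downwards, against 34.5% of genes tested, with *Irf8*, a factor of blood cells, lowest at 0.00531 (0.000642 to 0.0192) from 2 UMIs, and *Rfxap*, a subunit of the RFX complex that binds class I and class II promoters, was the exception at 2.02 (1.69 to 2.39). *Irf1*, an interferon regulatory factor named after its values were seen, was at 5.63 against 156 CPM. Of the interferon-γ receptor chains, *Ifngr1* was at 0.0345 (0.0259 to 0.0451) and *Ifngr2* at 3.17 (2.55 to 3.92) of T cells. Of 12 interferon-induced genes 11 were past the fold downwards too, with *Ifi27l2a* lowest at 0.0109 (0.00884 to 0.0132), whereas *Bst2* was at 0.921 (0.854 to 0.993).

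Each inducible catalytic subunit replaces a constitutive one, *Psmb8* for *Psmb5*, *Psmb9* for *Psmb6* and *Psmb10* for *Psmb7*, and all 3 ratios were lowest in melanoma barcodes. *Psmb8* had 4.399 (4.19 to 4.62) UMIs per *Psmb5* UMI in T_reg_ cells, 3.83 (3.64 to 4.04) in CD8+, 4.11 (3.82 to 4.42) in T_conv_ and 4.67 (3.42 to 6.50) in NKT cells, 2.14 (1.88 to 2.43) in myeloid and 0.0157 (0.00807 to 0.0276) in melanoma barcodes. The melanoma value rests on 12 *Psmb8* UMIs, most of them in barcodes with T cell marker UMIs. *Psmb9* per *Psmb6* was 2.39 (2.27 to 2.52) in T_reg_, 1.78 (1.64 to 1.93) in T_conv_, 1.79 (1.27 to 2.56) in NKT and 1.54 (1.46 to 1.63) in CD8+ T cells, 0.414 (0.363 to 0.472) in myeloid and 0.0522 (0.0379 to 0.0702) in melanoma barcodes. *Psmb10* per *Psmb7* varied less, from 2.54 (1.72 to 3.82) in NKT cells and 2.51 (2.24 to 2.82) in T_conv_ cells through 1.58 (1.31 to 1.91) in myeloid to 0.421 (0.345 to 0.510) in melanoma barcodes.

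**Figure D3:**
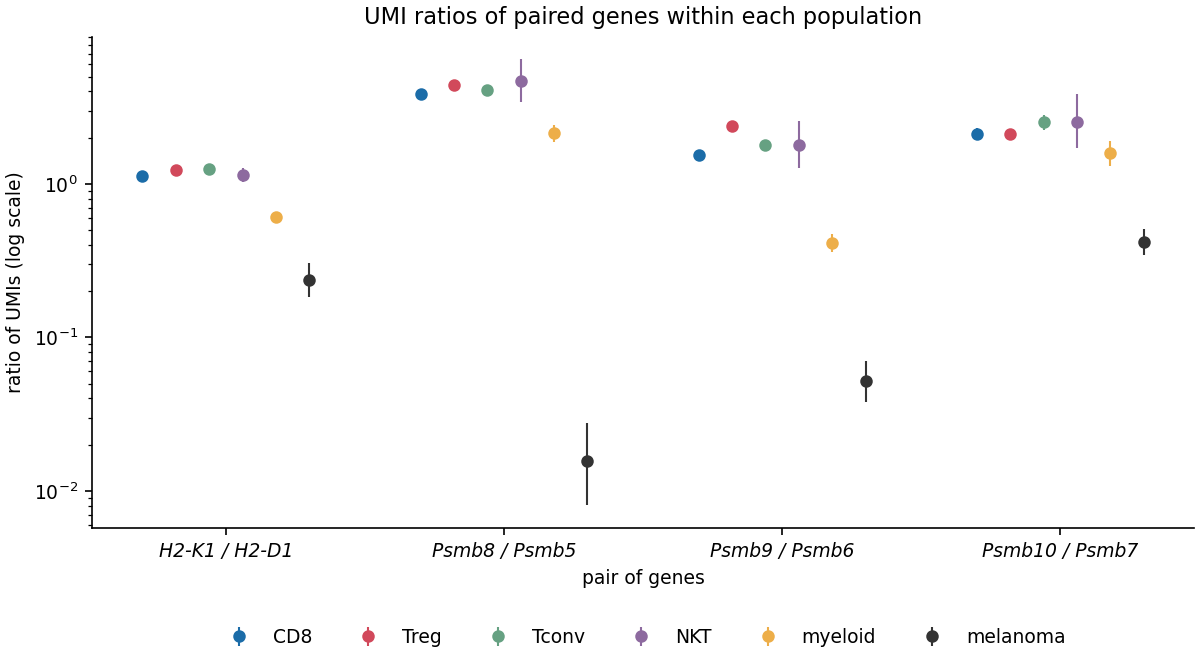
Ratio of UMIs between paired genes on a log axis (vertical) for *H2-K1* over *H2-D1* and for each inducible proteasome subunit over its constitutive counterpart (horizontal) in 6 populations, with exact 95% intervals. Melanoma barcodes are lowest for all 4 pairs, from 0.0157 for *Psmb8* over *Psmb5* to 0.421 for *Psmb10* over *Psmb7*.

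The share of single barcodes with a UMI was also taken. A low share can come from a low level alone, and spread between cells beyond that was not tested. After each barcode was thinned to 1500 UMIs, with shallower barcodes left out, *B2m* had a UMI in 99.1% (98.6 to 99.4) of T_reg_, 97.9% (97.0 to 98.6) of CD8+, 98.1% (97.2 to 98.7) of T_conv_ and 98.9% (93.8 to 99.97) of NKT cells, 94.8% (90.3 to 97.6) of myeloid and 46.2% (34.8 to 57.8) of melanoma barcodes. *H2-K1* had one in 98.4% (97.8 to 98.8), 95.03% (93.8 to 96.1), 96.2% (95.1 to 97.1), 83.9% (74.5 to 90.9), 73.8% (66.6 to 80.2) and 3.85% (0.8003 to 10.8) of them. The melanoma share of *H2-K1*, 3 of 78, lay beside 2.56% for *Cd3d*, a gene melanoma cells should lack. The share of *H2-D1* was 15.4% (8.21 to 25.3), and that of *B2m* lay clear of *Cd3d*. *Dct*, which T cells should lack, was in 1.19% of CD8+, 1.39% of T_reg_ and 1.61% of T_conv_ cells. All T cell shares of the 9 genes exceeded these.

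*Tap1* had a UMI in 40.4% (38.4 to 42.4) of thinned T_reg_ cells against 21.6% (19.5 to 23.9) of CD8+ and 22.5% (20.4 to 24.7) of T_conv_ cells. *Tap2* and *Tapbp* were likewise most frequent in T_reg_ cells, at 31.6% (29.7 to 33.5) and 32.8% (30.9 to 34.7). *Psmb8* was in 66.2% (64.3 to 68.1) of T_reg_, 64.5% (61.9 to 66.9) of CD8+ and 61.0% (58.5 to 63.5) of T_conv_ cells, 49.4% (41.7 to 57.1) of myeloid barcodes and 0 of 78 melanoma barcodes. *Nlrc5* was in 10.9% (9.35 to 12.6) of CD8+ and 9.75% (8.59 to 11.02) of T_reg_ cells and 4.65% (2.03 to 8.96) of myeloid barcodes. At full depth *Tap1* was seen in 61.5% of T_reg_ cells, *Psmb8* in 12.8%, *H2-K1* in 43.6% and *B2m* in 97.4% of melanoma barcodes, with *Cd3d* in 12.8%. Within thinned T_reg_ cells the 9 genes together had a median of 21 UMIs per cell, with 11 at the 10th and 34 at the 90th percentile, against medians of 14 in CD8+, 15 in T_conv_ and 13 in NKT cells, 11 in myeloid and 1 in melanoma barcodes.

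Interferon induces most of these genes, and T cells with at least 3 UMIs of *Isg15*, *Ifit1* and *Ifit3* were compared with those that had none. The gate took 240 CD8+ T cells against 929, 395 T_reg_ cells against 1674 and 188 T_conv_ cells against 1222, and it favours deep barcodes, with medians of 5401.5 against 3763, 3920 against 2560.5 and 3086.5 against 2377.5 UMIs. *Tapbp* rose most in CD8+ T cells, 216 against 132 CPM, a ratio of 1.64 (1.45 to 1.86), with 1.32 (1.20 to 1.45) in T_reg_ and 1.38 (1.17 to 1.63) in T_conv_ cells. *Psmb9* was at 1.16 (1.06 to 1.27), 1.42 (1.32 to 1.53) and 1.17 (1.02 to 1.34), and *Nlrc5* at 1.25 (1.00 to 1.56), 1.34 (1.11 to 1.62) and 1.44 (1.08 to 1.92). *H2-K1* moved little, at 1.07 (1.03 to 1.10), 0.926 (0.903 to 0.950) and 0.901 (0.861 to 0.943). In the same barcodes the constitutive *Psmb5*, named after its values were seen, was at 0.885 (0.779 to 1.00), 0.847 (0.745 to 0.961) and 1.12 (0.928 to 1.34). *Tapbp* in CD8+ T cells was the 1 member of 9 past 1.5-fold upwards, against 5.71% of genes tested there, and 0 passed it in T_reg_ cells, against 3.34%, or in T_conv_ cells, against 5.98%.

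The gate was also compared at like depth. In barcodes of 2500 to 4000 UMIs the ratio of the summed genes was 1.32 (1.26 to 1.39) in CD8+, 1.12 (1.09 to 1.15) in T_reg_ and 1.29 (1.24 to 1.35) in T_conv_ cells, and over the 4 bins from 1500 UMIs it ran from 1.14 to 1.32, 1.12 to 1.25 and 1.17 to 1.29. At 2500 to 4000 UMIs *Tapbp* reached 3.16 (2.26 to 4.397), 1.55 (1.26 to 1.90) and 1.90 (1.41 to 2.52), *Nlrc5* 2.25 (1.26 to 3.88), 1.98 (1.34 to 2.88) and 2.39 (1.49 to 3.74), and *Psmb8* 1.55 (1.29 to 1.85), 1.27 (1.12 to 1.43) and 1.66 (1.42 to 1.94). All of these intervals excluded 1. *B2m* was 1.36 (1.24 to 1.48), 1.12 (1.06 to 1.18) and 1.23 (1.14 to 1.33), and *H2-K1* 1.28 (1.16 to 1.40), 1.07 (1.01 to 1.13) and 1.24 (1.14 to 1.34).

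**Figure D4:**
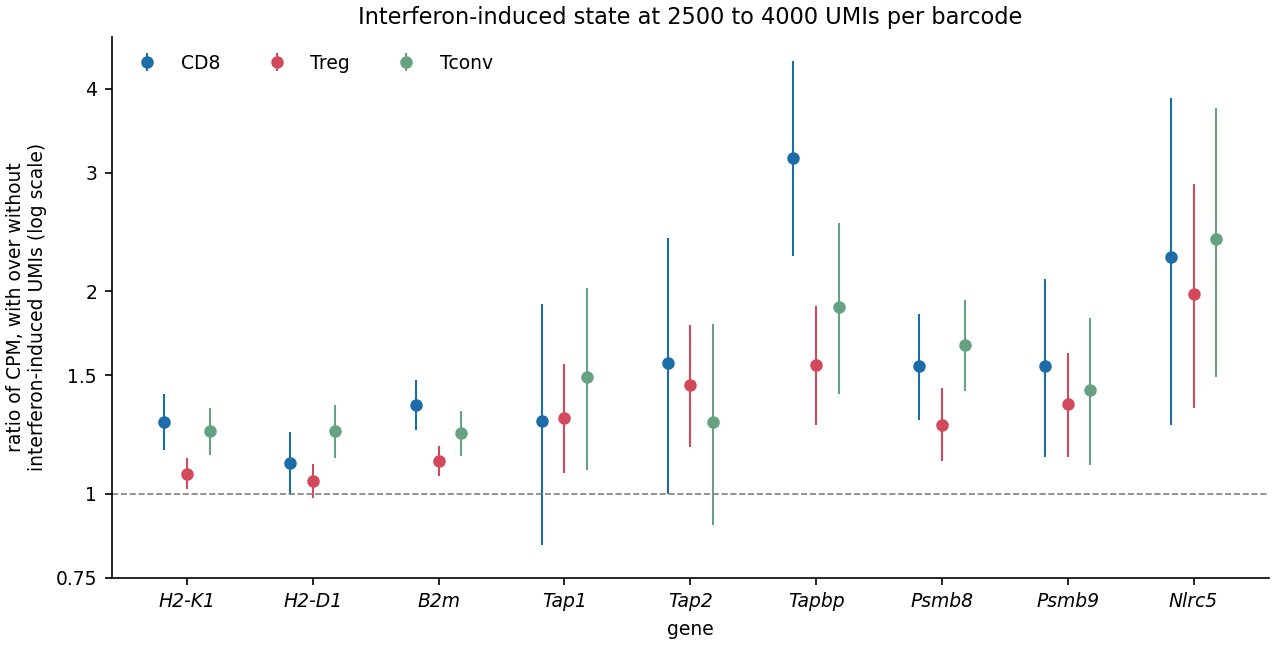
Ratio of CPM on a log axis (vertical) of each of the 9 genes (horizontal) in T cells with at least 3 UMIs of *Isg15*, *Ifit1* and *Ifit3* over T cells without any, for barcodes of 2500 to 4000 UMIs, with exact 95% intervals. The dashed line marks a ratio of 1, and *Tapbp* in CD8+ T cells is highest at 3.16, while *H2-D1* in T_reg_ cells is lowest at 1.04.

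Cell cycle state moved with depth as well. Cycling cells, with at least 2 UMIs of *Mki67* and *Top2a*, had lower sums than cells without, at 0.751 (0.739 to 0.763) in CD8+, 0.718 (0.708 to 0.728) in T_reg_ and 0.727 (0.704 to 0.7497) in T_conv_ cells. They were far deeper, with medians of 12312 against 3333.5, 8112 against 2731 and 6248.5 against 2462 UMIs, and 2 of 9 members were past 1.5-fold downwards in each population, against 13.2%, 17.8% and 21.2% of genes. The ratio depended on depth. In the same order of populations it was 1.04 (0.779 to 1.37), 1.29 (1.19 to 1.39) and 1.15 (0.980 to 1.35) at 1500 to 2500 UMIs, on 2, 16 and 6 cycling cells, and 0.968 (0.878 to 1.07), 1.15 (1.09 to 1.20) and 1.41 (1.27 to 1.55) at 2500 to 4000, on 13, 30 and 9. It was 1.12 (1.07 to 1.16), 1.04 (1.01 to 1.07) and 1.25 (1.19 to 1.31) at 4000 to 8000 UMIs and 0.817 (0.798 to 0.836), 0.857 (0.836 to 0.879) and 0.721 (0.679 to 0.766) at 8000 and over. With barcodes thinned to 1500 UMIs it was 0.954, 1.05 and 1.24.

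For activation markers too the ratio of the summed genes depended on depth. With *Pdcd1*, the gene of PD-1, it was 0.901 (0.888 to 0.913) in CD8+, 0.926 (0.915 to 0.938) in T_reg_ and 1.05 (1.03 to 1.07) in T_conv_ cells over all barcodes, and cells with the gene were deeper, with medians of 7782.5 against 3143.5, 4275.5 against 2786 and 2954 against 2475.5 UMIs. At 2500 to 4000 UMIs it was 1.14 (1.10 to 1.19), 1.05 (1.02 to 1.08) and 1.14 (1.10 to 1.19), and over the 4 bins from 1500 UMIs it ran from 1.08 to 1.14, 0.999 to 1.05 and 1.02 to 1.77. With *Ifng* the ratio was 0.940 (0.927 to 0.953) in CD8+ and 1.03 (1.01 to 1.05) in T_conv_ cells over all barcodes, 1.08 (1.03 to 1.12) and 1.08 (1.03 to 1.12) at 2500 to 4000 UMIs, and 1.07 to 1.08 and 0.926 to 1.72 over the 4 bins. With *Il1rl1*, the IL-33 receptor gene, it was 1.06 (1.04 to 1.07) in T_reg_ cells over all barcodes, 1.000 (0.974 to 1.03) at 2500 to 4000 UMIs and 0.981 to 1.16 over the 4 bins.

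Between tumors the comparison asked whether T cells of IL-33–secreting tumors carry more of these genes. Few cells could be placed, since the 4 tags had 554, 929, 102 and 145 UMIs against 22837655 unmapped, and most placed cells rest on 1 tag UMI. With all tag UMIs from 1 tumor type, a rule chosen after seeing the tag counts, 95 T cells were placed in B16–IL-33 and 593 in B16. The 9 genes summed to 13214 (12842 to 13594) against 10952 (10834 to 11070.3) CPM in them, a ratio of 1.21 (1.17 to 1.24). By population the ratio was 1.27 (1.22 to 1.32) in T_reg_ cells (57 against 281), 1.05 (0.980 to 1.12) in CD8+ (21 against 142) and 1.06 (0.964 to 1.15) in T_conv_ cells (17 against 170), and the last 2 intervals included 1. The mix of populations differed, since T_reg_ cells, which had the most of these genes, were 57 of the 95 cells and 281 of the 593.

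Among the members in T cells, *Nlrc5* had 96.8 (67.4 to 135) against 54.3 (46.3 to 63.3) CPM and *B2m* 4119 (3912 to 4334) against 3198 (3134 to 3262) CPM. Their ratios, B16–IL-33 over B16, were 1.78 (1.20 to 2.58) and 1.29 (1.22 to 1.36), that of *H2-K1* 1.21 (1.14 to 1.28), *H2-D1* 1.18 (1.11 to 1.25), *Tap1* 1.37 (1.12 to 1.66) and *Tap2* 1.40 (1.11 to 1.73). *Psmb8*, at 0.919 (0.805 to 1.05), *Psmb9*, at 1.01 (0.840 to 1.20), and *Tapbp*, at 1.21 (0.959 to 1.52), did not differ. Within populations *H2-K1* was at 1.27 (1.18 to 1.36) in T_reg_, 0.967 (0.848 to 1.10) in CD8+ and 1.15 (0.981 to 1.35) in T_conv_ cells, *H2-D1* at 1.28 (1.19 to 1.38), 0.999 (0.869 to 1.14) and 0.854 (0.693 to 1.04), and *B2m* at 1.34 (1.25 to 1.44), 1.16 (1.03 to 1.30) and 1.20 (1.03 to 1.40). Of the 8 members with at least 200 UMIs, which leaves out *Nlrc5*, 0 were past 1.5-fold in either direction, against 4.63% of 2161 genes higher and 7.22% lower. Depth differed too, with medians of 2643 UMIs in T_reg_ cells of B16–IL-33 and 3753 in those of B16, and shallow barcodes had the higher levels. In bins of depth, from the shallowest to the deepest, the summed T_reg_ ratio was 0.804 (0.693 to 0.930), 1.10 (1.01 to 1.19), 1.16 (1.07 to 1.26), 1.07 (1.01 to 1.15) and 1.31 (1.20 to 1.44), on 9, 19, 11, 14 and 4 B16–IL-33 cells. That of *Nlrc5* there went from 0.380 (0.00910 to 2.43) at 2500 to 4000 UMIs, on 1 against 17 UMIs, to 8.25 (2.51 to 24.3) at 8000 and over, on 6 against 11, and the intervals of the other 3 bins included 1. With at least 2 tag UMIs 3 B16–IL-33 T cells were left, with a summed ratio of 1.02 (0.871 to 1.19). Wrong tags, depth, the mix of populations and tumor type cannot be told apart in these cells.

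Genes whose levels over the 6 populations lay closest to each member were found by the root mean square difference of centred log2(CPM + 1), with the measure in brackets. Where a gene has few UMIs in melanoma barcodes the added 1 sets much of the measure, so near genes with under 2 CPM there are left out, a limit chosen after seeing the values. That leaves none of the 3 nearest to *H2-K1*, and 1 of 3 for *H2-D1*, *Tap1* (0.158), and for *Psmb9*, *H2-D1* (0.209). Nearest to *B2m* were *Psme2* (0.110), *Orai1* (0.1198) and *Cap1* (0.151), nearest to *Tap1* *H2-D1* (0.158) and *Psmb9* (0.228), both members, and nearest to *Tap2* *Shisa5* (0.135), *Akap13* (0.230) and *Ifngr1* (0.237). Nearest to *Tapbp* were *Diaph1* (0.0985), *Irf2* (0.153) and *B2m* (0.187), *Psmb8* lay nearest to *Laptm5* (0.217) and *Coro1a* (0.247), and *Nlrc5* to *Sipa1* (0.167), *Nabp1* (0.171) and *Elf1* (0.175). With 6 populations of 1 library, most of the spread is the step between melanoma barcodes and the rest, which many genes of blood cells share.

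In the genome, 7 of the 9 members lie on chromosome 17, with *Psmb9*, *Tap1*, *Psmb8* and *Tap2* side by side between 34181987 and 34216321, while *B2m* is on chromosome 2 and *Nlrc5* on chromosome 8. Reads from related heavy chains can be hard to place, and a UMI that fits several genes is not counted. Of all windows of 50 bases in the transcripts of *H2-K1*, 9.63% also occur in another gene, most often *H2-Q10*, and of those of *H2-D1* 12.8%, most often *H2-Q1*. The share was at most 2.87% for the other members and 0 for *B2m*, *Psmb9* and *Nlrc5*.

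Promoters are where regulators such as NLRC5 bind, so their sequences were searched for known motifs. RefSeq windows of 300 bases (250 before and 50 after the start, GRCm38.p6) were available for 7 of 9 members and not for *Tap2* and *Nlrc5*. Of 5 motifs searched on both strands 4 are given, AANNGAAA, the core of sites for interferon regulatory factors, GGGATTCCC for NF-κB, and CCAAT and TGACG, which occur in the Y and X2 boxes of MHC promoters. AANNGAAA was in the windows of *H2-K1*, *H2-D1* and *B2m*, and in 23.9% of 32851 promoters. GGGATTCCC was in those of *H2-K1* and *H2-D1*, and in 0.353% of all. TGACG was in 5 of 7, all but *Tapbp* and *Psmb8* (20.8% of all) and CCAAT in 6 of 7, all but *Psmb8* (37.4%). These are matches of letters, and short ones are common.

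*H2-K1* (chr17:34000284-34000583, minus strand), *H2-D1* (chr17:35262844-35263143, plus), *B2m* (chr2:122147437-122147736, plus) and *Tap1* (chr17:34187306-34187605, plus) are printed 5′ to 3′ on the strand of the gene, with every match to these 4 motifs in capitals, because the heavy chains and *B2m* share a run of matches and *Tap1* was the member most raised in T_reg_ cells.
H2-K1: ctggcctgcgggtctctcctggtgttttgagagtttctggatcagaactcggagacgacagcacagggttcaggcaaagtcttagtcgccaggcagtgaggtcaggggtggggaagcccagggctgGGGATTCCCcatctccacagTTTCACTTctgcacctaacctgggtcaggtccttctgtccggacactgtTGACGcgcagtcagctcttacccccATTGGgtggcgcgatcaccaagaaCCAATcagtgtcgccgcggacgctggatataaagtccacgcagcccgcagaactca
H2-D1: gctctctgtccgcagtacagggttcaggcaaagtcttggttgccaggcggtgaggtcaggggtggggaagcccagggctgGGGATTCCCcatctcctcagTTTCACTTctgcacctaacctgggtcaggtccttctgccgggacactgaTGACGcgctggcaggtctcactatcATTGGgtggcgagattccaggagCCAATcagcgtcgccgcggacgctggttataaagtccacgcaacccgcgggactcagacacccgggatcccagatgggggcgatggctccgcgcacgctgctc
B2m: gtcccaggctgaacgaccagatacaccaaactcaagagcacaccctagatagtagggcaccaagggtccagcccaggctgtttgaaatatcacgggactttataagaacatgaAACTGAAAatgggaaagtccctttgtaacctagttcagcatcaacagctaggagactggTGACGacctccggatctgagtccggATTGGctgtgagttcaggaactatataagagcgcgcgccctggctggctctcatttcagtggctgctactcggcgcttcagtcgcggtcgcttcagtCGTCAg
Tap1: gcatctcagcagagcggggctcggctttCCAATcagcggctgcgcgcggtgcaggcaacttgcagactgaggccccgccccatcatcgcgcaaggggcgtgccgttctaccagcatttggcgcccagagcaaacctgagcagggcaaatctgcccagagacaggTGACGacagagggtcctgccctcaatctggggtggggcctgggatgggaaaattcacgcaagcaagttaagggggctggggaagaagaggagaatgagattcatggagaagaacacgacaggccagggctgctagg
In both heavy chains AANNGAAA starts 20 bases after GGGATTCCC. Laid on each other by GGGATTCCC without gaps, the windows of *H2-K1* and *H2-D1* were identical at 180 of 254 bases (70.9%), with a longest identical run of 47 bases. The *Tap1* window overlaps that of *Psmb9*, on the other strand, by 275 bases (chr17:34187306-34187580), so both genes start from 1 shared stretch. Over all depths their 2 ratios lay closer together for T_reg_ over T_conv_ cells (1.55 and 1.41) than for CD8+ over T_conv_ cells (0.777 and 1.13). This did not hold at 2500 to 4000 UMIs, with 1.74 and 1.29 against 0.919 and 0.895, or at 4000 to 8000, with 1.65 and 1.35 against 0.877 and 1.03.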

How the data were processed

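The authors deposited raw counts of UMIs per gene and barcode (10x 5′ chemistry, combined GRCh38 and mm10 reference) and raw counts of UMIs per hashtag and barcode, without normalization. The matrix header names Cell Ranger 3.1.0, and the submitters' processing notes name 6.1.1. The deposited counts of UMIs per TCR contig served to find doublets, barcodes with 2 or more productive beta chains, which were kept except in an alternative. No other doublet filter was used.

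Mouse UMIs were summed over the barcodes of a population and divided by all its mouse UMIs. Levels have exact Poisson intervals, ratios exact conditional binomial intervals and shares Clopper-Pearson intervals, all at 95%. A count of 0 allows up to 3 counts. Past the fold means 1.5-fold among genes with at least 200 UMIs in both populations together. No significance test was run, since 1 library gives 1 sample. Named genes were the 9 members, the highest and lowest gene of each list in each comparison, and the 3 nearest genes per member by log2(CPM + 1) among genes with at least 500 UMIs. The members and lists were chosen with earlier results of these data known. The ratio was tested on simulated counts with Poisson error alone. They held no spread between cells, no effect of depth and no RNA of other cells, so the test covers counting error only.

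Alternatives were the scaling, the denominator, the cell limits, the population rules, the tags, thinning to 1500 or 1000 UMIs, averaging CPM over single cells and the minimum of UMIs. Bins of depth, size factors between states and leaving out barcodes of 2 populations or with T cell marker UMIs were chosen after seeing the data. Of 31053 gene identifiers 31011 were found in GENCODE vM21, which gave coordinates. *H2-T10* and *H2-K2* were not in the feature table. Python 3.11.15, NumPy 2.4.6, SciPy 1.17.1, pandas 2.3.3 and matplotlib 3.10.9 were used.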

Additional observations from a re-analysis of the deposited data

How the results depend on the processing

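Of 495 ratios of single genes between populations under the alternatives, 338 kept their value, 141 moved and 16 turned direction. Ratios whose main interval included 1 could cross 1 without being counted as turned. *Nlrc5* in CD8+ over T_conv_ cells, for example, went from 0.898 (0.782 to 1.03) to 1.76 (1.09 to 3.04) at 8000 UMIs and over. For the sum of the 9 genes between populations the counts were 20, 34 and 1 of 55. Between tumors they were 55, 29 and 6 of 90 for single genes and 7, 12 and 0 of 19 for the sum. Between states they were 48, 56 and 4 of 108 for single genes and 9, 27 and 12 of 48 for the sum. Of the shares 14 of 54 kept their value and 40 moved, and of the levels 1 of 18 kept it and 17 moved. Counts of members past the fold were labelled as moved in 4 of 30 cases and counts of all genes in 12 of 30. These labels pass over smaller changes, so a kept value is not always an equal one. The count of members past the fold downwards in myeloid over T went from 6 to 4 with scaling by the median of ratios and is not among the 4. Bins of depth, barcodes left out for 2 populations or a T cell marker, and scaling by the median of ratios between states were chosen after seeing the data. With at least 2 tag UMIs T_conv_ cells gave no value, as 0 cells of B16–IL-33 were left, and the CD8+ ratio rests on 1 B16–IL-33 cell with 11 UMIs of the 9 genes and the T_reg_ ratio on 2 cells. At most 2500 genes per barcode leaves out 75 of the 78 melanoma barcodes, so the ratio of melanoma to T cells rests on 3. The cause of each change was not tested, and those that turned direction are marked.

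With barcodes of 2500 to 4000 UMIs, the ratio of *B2m* was 1.01 (turned) in CD8+ over T_conv_. For *Psmb8* it was 0.998 (turned) in CD8+ over T_conv_ and 1.01 (turned) in myeloid over T. For *Psmb9* it was 0.895 (turned) in CD8+ over T_conv_ and 1.06 (turned) in myeloid over T. Summed, 9 members gave 0.975 in CD8+ over T_conv_, 1.41 in T_reg_ over T_conv_, 0.916 in NKT over T_conv_ and 0.762 in myeloid over T. For *Tap2* it was 1.04 (turned) in NKT over T_conv_. For *Tap1* it was 1.28 (turned) in myeloid over T. For *Tapbp* it was 1.27 (turned) in myeloid over T. For *Nlrc5* in B16–IL-33 over B16 it was 0.958 (turned) in T cells and 0.380 (turned) in T_reg_ cells. For 9 members summed in B16–IL-33 over B16 it was 1.15 in T cells and 1.16 in T_reg_ cells. For 9 members summed it was 1.32 in CD8+ cells by the interferon gate, 1.12 in T_reg_ cells by the interferon gate, 1.29 in T_conv_ cells by the interferon gate, 0.968 in CD8+ cells by *Mki67* and *Top2a*, 1.15 (turned) in T_reg_ cells by *Mki67* and *Top2a*, 1.41 (turned) in T_conv_ cells by *Mki67* and *Top2a*, 1.14 (turned) in CD8+ cells by *Pdcd1*, 1.05 (turned) in T_reg_ cells by *Pdcd1*, 1.14 in T_conv_ cells by *Pdcd1*, 1.08 (turned) in CD8+ cells by *Ifng*, 1.08 in T_conv_ cells by *Ifng* and 1.000 (turned) in T_reg_ cells by *Il1rl1*. For *H2-K1* it was 1.07 (turned) in T_reg_ cells by the interferon gate and 1.24 (turned) in T_conv_ cells by the interferon gate. With scaling by the median of ratios, the ratio of 9 members summed was 0.838 in CD8+ over T_conv_, 1.24 in T_reg_ over T_conv_, 0.749 in NKT over T_conv_ and 0.734 in myeloid over T. The count of members past the fold upwards was 0 in T_reg_ over T_conv_ (against 7.43% of genes tested). For 9 members summed it was 1.07 in T_reg_ cells by the interferon gate, 0.723 in CD8+ cells by *Mki67* and *Top2a*, 0.745 in T_reg_ cells by *Mki67* and *Top2a*, 0.612 in T_conv_ cells by *Mki67* and *Top2a*, 0.921 in CD8+ cells by *Pdcd1*, 1.02 in T_conv_ cells by *Pdcd1*, 0.953 in CD8+ cells by *Ifng* and 1.03 in T_reg_ cells by *Il1rl1*. With barcodes of at least 8000 UMIs, the ratio of *H2-K1* was 1.18 (turned) in CD8+ over T_conv_. For *H2-D1* it was 1.20 (turned) in CD8+ over T_conv_. For *B2m* it was 1.16 (turned) in CD8+ over T_conv_ and 1.01 (turned) in NKT over T_conv_. For *Tap1* it was 1.17 (turned) in CD8+ over T_conv_. For *Tap2* it was 1.39 (turned) in CD8+ over T_conv_. For *Tapbp* it was 1.14 (turned) in CD8+ over T_conv_. Summed, 9 members gave 1.23 (turned) in CD8+ over T_conv_, 1.57 in T_reg_ over T_conv_, 0.947 in NKT over T_conv_, 0.706 in myeloid over T and 0.0888 in melanoma over T. With barcodes thinned to 1500 UMIs, the ratio of 9 members summed was 1.30 in CD8+ cells by the interferon gate, 1.21 in T_reg_ cells by the interferon gate, 1.26 in T_conv_ cells by the interferon gate, 0.954 in CD8+ cells by *Mki67* and *Top2a*, 1.05 (turned) in T_reg_ cells by *Mki67* and *Top2a*, 1.24 (turned) in T_conv_ cells by *Mki67* and *Top2a*, 0.995 in CD8+ cells by *Pdcd1*, 1.09 (turned) in T_reg_ cells by *Pdcd1*, 1.06 (turned) in CD8+ cells by *Ifng* and 1.08 in T_reg_ cells by *Il1rl1*. For *H2-K1* it was 1.11 (turned) in T_reg_ cells by the interferon gate and 1.19 (turned) in T_conv_ cells by the interferon gate. With a mean of each cell's own CPM, the ratio of 9 members summed was 0.746 in NKT over T_conv_ and 0.0557 in melanoma over T. For 9 members summed it was 0.982 (turned) in T_reg_ cells by the interferon gate, 0.782 in CD8+ cells by *Mki67* and *Top2a*, 0.788 in T_reg_ cells by *Mki67* and *Top2a*, 0.949 in T_conv_ cells by *Mki67* and *Top2a*, 0.921 in CD8+ cells by *Pdcd1*, 0.963 in T_reg_ cells by *Pdcd1*, 0.968 in CD8+ cells by *Ifng*, 0.948 (turned) in T_conv_ cells by *Ifng* and 1.02 in T_reg_ cells by *Il1rl1*. With at most 2500 genes per barcode, the ratio of 9 members summed was 0.880 in CD8+ over T_conv_, 1.33 in T_reg_ over T_conv_, 0.829 in NKT over T_conv_, 0.690 in myeloid over T and 0.119 in melanoma over T. For *Tapbp* it was 1.05 (turned) in myeloid over T. For 9 members summed in B16–IL-33 over B16 it was 1.09 in T cells, 0.963 in CD8+ cells and 1.14 in T_reg_ cells. With at least 2 tag UMIs, the ratio of *H2-D1* in B16–IL-33 over B16 was 0.793 (turned) in T cells and 0.863 (turned) in T_reg_ cells. For *Tap1* in B16–IL-33 over B16 it was 0.239 (turned) in T cells and 0.253 (turned) in T_reg_ cells. For 9 members summed in B16–IL-33 over B16 it was 1.02 in T cells, 0.405 in CD8+ cells and 1.06 in T_reg_ cells. With a denominator without ribosomal and mitochondrial genes, the ratio of 9 members summed was 0.838 in CD8+ over T_conv_, 1.18 in T_reg_ over T_conv_, 0.840 in NKT over T_conv_ and 0.527 in myeloid over T. With the stricter T cell rule, the ratio of 9 members summed was 0.808 in CD8+ over T_conv_, 1.25 in T_reg_ over T_conv_, 0.825 in NKT over T_conv_ and 0.589 in myeloid over T. With the tags numbered 1 alone, the ratio of 9 members summed in B16–IL-33 over B16 was 1.11 in T cells, 0.929 in CD8+ cells and 1.21 in T_reg_ cells. With a fold of 2, the count of members past the fold upwards was 0 in T_reg_ over T_conv_ (against 2.93% of genes tested). The count of members past the fold downwards was 0 in NKT over T_conv_ (against 5.95% of genes tested) and 3 in myeloid over T (against 24.4% of genes tested). With a mitochondrial limit of 10%, the ratio of 9 members summed was 0.80003 in CD8+ over T_conv_, 1.25 in T_reg_ over T_conv_ and 0.746 in NKT over T_conv_. With barcodes of 2 or more beta chains left out, the ratio of 9 members summed was 0.812 in CD8+ over T_conv_. With barcodes in 2 populations left out, the ratio of 9 members summed was 0.579 in myeloid over T. With at least 2 UMIs of *Csf1r*, the ratio of 9 members summed was 0.577 in myeloid over T. With barcodes with a T cell marker UMI left out, the ratio of 9 members summed was 0.566 in myeloid over T. With the tags numbered 2 alone, the ratio of 9 members summed in B16–IL-33 over B16 was 1.25 in T cells.

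The data are 1 library of pooled cells, so spread between animals was not measured. Levels are sums over barcodes and depend on depth, which differs between populations. Populations rest on 1 or a few marker UMIs, and myeloid and melanoma barcodes came through a sort for T cells. RNA from other cells was present, and its part in each level was not tested. Few cells carried a tag UMI. Protein at the cell surface was not measured here.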
